A study of Mus musculus with 25 samples.

Results

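Immediate early response genes are the genes a cell transcribes first after a growth factor, a cytokine or a stress reaches it, before any new protein is needed. Kinases of the MAPK pathway act on factors that already sit at their promoters, such as SRF with its ternary complex partners and CREB, and the transcripts are short-lived, so that their level follows recent signalling. In the liver they are known for their rapid rise after partial hepatectomy, injury and acute phase cytokines, and Fos, Jun and Myc were first described as cellular relatives of retroviral oncogenes.

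The members were followed by symbol, a choice that used no measured value: the AP-1 subunits Fos, Fosb, Jun and Junb, the related factor Atf3, the transcription factors Egr1 and Myc, the nuclear and stress response proteins Ier2 and Ier3, and Dusp1, a phosphatase that switches MAP kinases off. All 10 members, of 48795 genes in the files, matched 1 Ensembl gene each, and all 10 were among the 15625 genes that passed the filter on low counts.

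The study asked how a western diet and a carcinogen change the liver and its tumors. The mRNA of 25 samples was sequenced, all from male C57BL/6J mice, an inbred strain. Diethylnitrosamine (DEN), which hepatocytes turn into a mutagen, was given into the abdomen at 25 mg/kg when mice were 2 weeks old. Mice ate a western-like or a control diet from weaning on, and organs were collected at an age of 36 to 39 weeks. Control liver (labelled nonDEN-L-CD, 3 samples) had no DEN and the control diet, and WD liver (nonDEN-L-WD, 4 samples) had no DEN and the western diet. DEN liver (DEN-L-CD, 4 samples) had DEN and the control diet. With DEN and the western diet, tumors (DEN-T-WD, 6 samples) and the peritumoral liver around them (DEN-PT-WD, 8 samples) were taken apart. With DEN and the control diet, tumors were too small to be cut out, so that DEN liver may hold tumor tissue. The labels do not say which tumor and which peritumoral sample came from 1 mouse, or whether all samples of a group came from separate mice, so that p-values measure the spread between these samples.

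RSEM expected counts summed to between 21530083 and 38074411 per library. TPM is the share of a gene among all transcripts of a library, corrected for gene length, so that levels of different genes can be set side by side. The 6 hepatocyte markers (Alb, Ttr, Apoa1, Tat, Cps1, Hnf4a) were detected in every group, at a summed TPM of 35339 to 64889 in the 19 liver libraries. Several libraries stood apart. In tumor replicate 5 the hepatocyte markers summed to 28623 TPM, against 103941 to 123771 in the other 5 tumors. In control liver replicates 2 and 3 the metallothioneins Mt1 and Mt2, which bind metal ions and rise with stress and cytokines, summed to 4392 and 4175 TPM, against 240.29 in replicate 1, and 12 acute phase genes summed to 32702 and 34116 TPM, against 12454.5 in replicate 1. Acinar pancreas markers varied from 9.41 to 4391 TPM over all libraries. Without control liver replicates 2 and 3, an alternative chosen after seeing the data in which the remaining control sample is assumed to vary like the other groups, calls over all genes went from 825 to 127 in WD liver against control liver, from 734 to 115 in DEN liver against control liver and from 430 to 22 in the interaction of DEN with diet. Calls of members and of listed genes against control liver are therefore followed by their values or counts without these 2 libraries. With 1 control sample left the standard errors against control liver are larger, so that a call can be lost at about the same value.

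The sequences before the RefSeq start of 5 members are shown because the comparisons below turn on Fos, Junb, Atf3 and Ier3, and because Dusp1 holds the motif more than once. Each runs 5′ to 3′ on the strand of the gene and ends before the RefSeq start site (GRCm38.p6), with capitals for TGACGT, the core of the CREB and ATF site, read on either strand (ACGTCA on the other). The windows are chr12:85473690-85473889 (plus) for Fos, chr1:191183334-191183533 (minus) for Atf3, chr17:26508520-26508672 (minus, cut where an annotated exon begins) for Dusp1, chr8:84978749-84978948 (minus) for Junb and chr17:35821513-35821712 (plus) for Ier3. The start used is that of RefSeq, and in the GENCODE annotation 29 bases of the Ier3 window and 7 of the Atf3 window are exonic. By that annotation the whole Atf3 and Dusp1 windows lie inside the span of the gene, whose outermost start is further upstream.
Fos: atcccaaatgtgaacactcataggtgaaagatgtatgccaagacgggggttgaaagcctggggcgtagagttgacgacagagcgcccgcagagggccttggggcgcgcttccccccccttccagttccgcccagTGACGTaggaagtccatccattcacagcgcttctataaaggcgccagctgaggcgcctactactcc
Atf3: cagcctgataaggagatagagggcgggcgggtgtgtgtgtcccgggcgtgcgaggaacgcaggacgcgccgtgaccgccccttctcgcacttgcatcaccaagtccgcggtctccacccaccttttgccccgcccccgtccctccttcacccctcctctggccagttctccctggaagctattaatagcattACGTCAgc
Dusp1: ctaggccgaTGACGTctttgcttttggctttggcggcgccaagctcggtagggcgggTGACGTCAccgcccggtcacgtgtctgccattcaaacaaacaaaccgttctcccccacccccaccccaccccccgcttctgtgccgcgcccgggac
Junb: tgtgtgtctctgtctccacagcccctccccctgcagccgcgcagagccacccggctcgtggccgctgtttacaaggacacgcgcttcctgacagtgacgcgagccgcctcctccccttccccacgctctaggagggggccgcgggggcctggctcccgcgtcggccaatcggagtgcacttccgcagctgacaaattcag
Ier3: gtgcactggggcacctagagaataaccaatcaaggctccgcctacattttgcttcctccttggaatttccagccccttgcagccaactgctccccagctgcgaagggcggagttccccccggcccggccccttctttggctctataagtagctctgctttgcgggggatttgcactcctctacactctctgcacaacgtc

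Read this way, TGACGT lay within 250 bases upstream of Fos (66 to 61 bases before the start), Atf3 (8 to 3 bases, on the other strand) and Dusp1 (191 to 186, 143 to 138 and, on the other strand and overlapping the second, 141 to 136 bases). It was held by 3 of the 7 members with a RefSeq promoter entry (Fos, Fosb, Jun, Junb, Atf3, Ier3 and Dusp1) and by 6.47% of all 32851 promoters. The full palindrome TGACGTCA was in 1 of the 7, Dusp1, and in 1.55% of all promoters, and the E-box CACGTG, a Myc and Max site, was in Dusp1 and in 6.02%. A TATAA on the gene strand was in Fos and Ier3 and in 16.0% of all promoters. The AP-1 site TGANTCA was in none of the 7 and in 6.75% of all promoters, the CArG box bound by SRF in none and in 1.47%, and GCGGGGGCG, an Egr1 site, in Fosb and in 2.57%. These are matches of letters in a short window.

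In these livers and tumors Egr1, Ier3, Atf3, Junb and Fos were higher in DEN-induced tumors than in the liver of uninjected mice on the same western diet, by log2 fold changes of 1.20 to 2.85. The call for Fos was lost without tumor replicate 1 or WD liver replicate 1 or 4. Egr1 and Ier3 were also higher in tumors than in the liver around them. The highest mean of Junb was that of uninjected mice on the control diet and the highest mean of Myc that of DEN-injected mice on that diet, and neither passed the test against tumors, the next group (adjusted p = 0.0735 and 0.0649). Fosb, Jun, Ier2 and Dusp1, the brake on the pathway, were called in none of the 6 main comparisons.

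Over all libraries, Dusp1 lay between 15.37 and 48.02 TPM and Jun between 7.84 and 36.02, whereas Fosb, the lowest, lay between 0.34 and 3.63. In tumors the member with the highest mean was Egr1 (40.6 ± 17.1 TPM, SD, n = 6), and in uninjected mice on the control diet it was Junb (35.5 ± 12.7, n = 3). Across the 5 groups, 8 of 10 members passed the F test of edgeR's quasi-likelihood fit (adjusted p up to 0.05), all but Fosb (adjusted p = 0.235) and Jun (0.125), beside 68.5% of all genes tested. A member is called in a comparison below when its adjusted p, by edgeR's quasi-likelihood test with Benjamini-Hochberg adjustment over 15625 genes, is at most 0.05 and its log2 fold change is at least 1 in size.

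**Figure D1:**
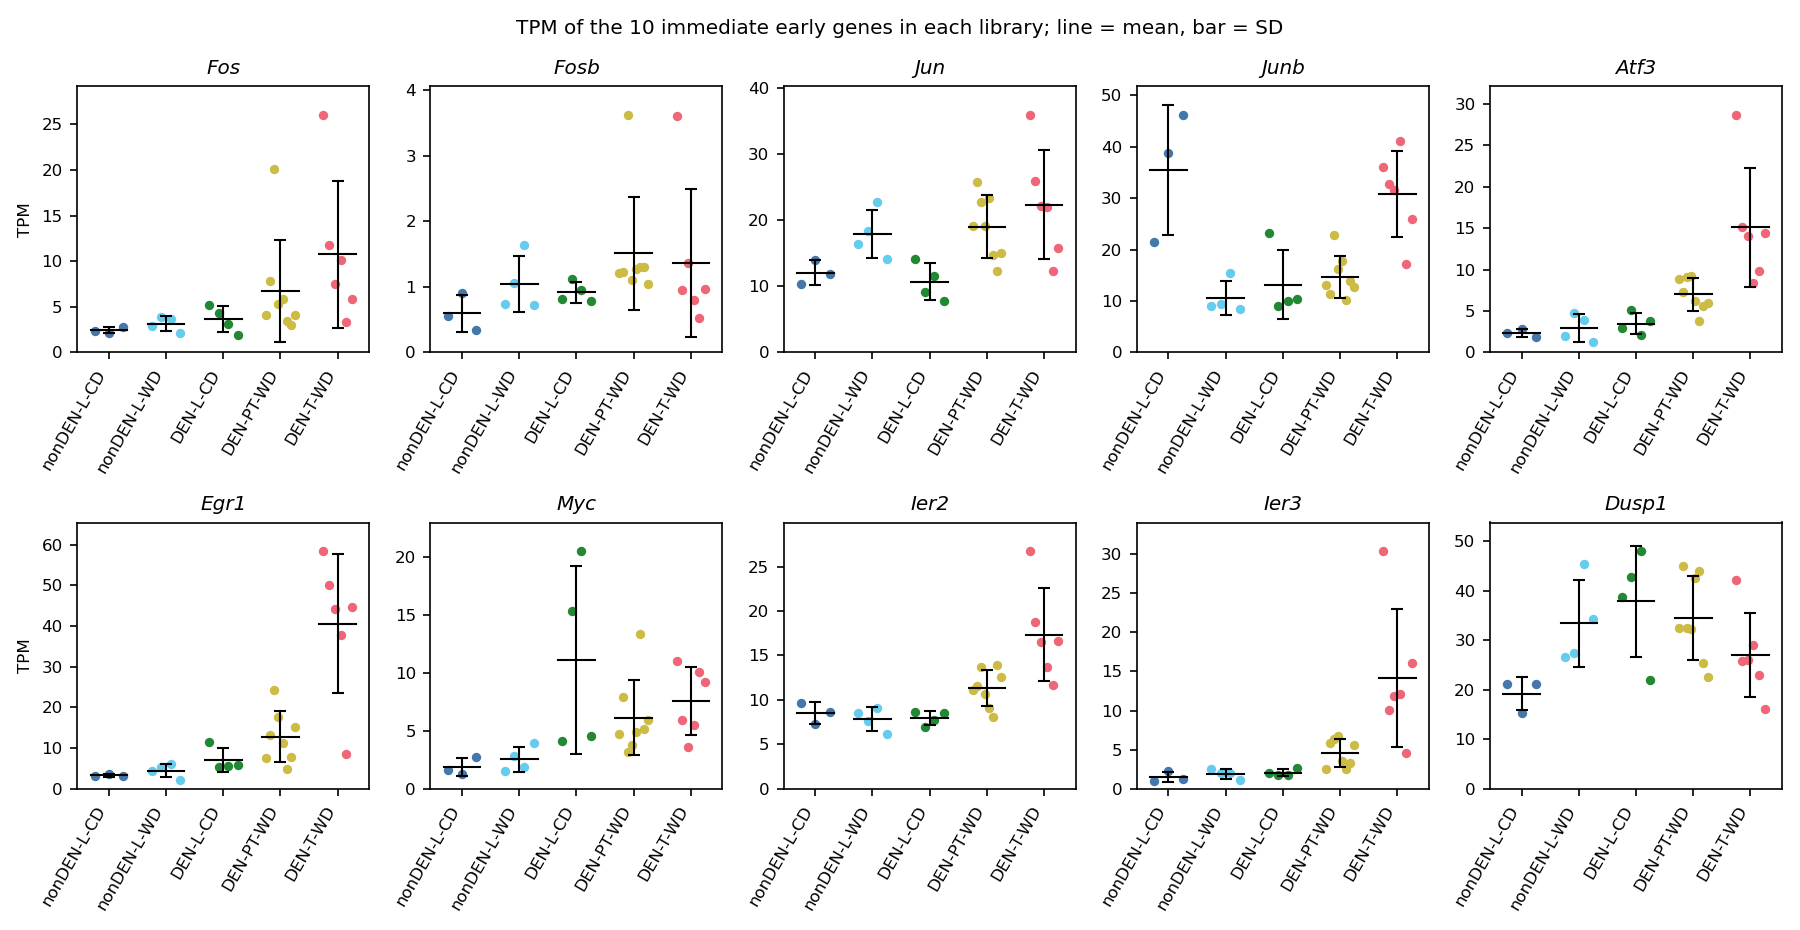
TPM of each of the 10 members (y axis, from 0, scales differ) in the 5 groups (x axis). Points are libraries, lines are group means and bars are SD. Fos, Jun, Egr1, Atf3, Ier2 and Ier3 have their highest means in DEN-T-WD, Fosb in DEN-PT-WD, Junb in nonDEN-L-CD, and Myc and Dusp1 in DEN-L-CD.

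Fos (ENSMUSG00000021250, chr12:85473890-85477273, plus strand), the AP-1 subunit that dimerises with Jun proteins, had its highest levels in single libraries. TPM was 2.39, 2.1 and 2.82 in control liver, 2.87, 3.89, 3.71 and 2.16 in WD liver, and 5.15, 4.34, 3.15 and 1.96 in DEN liver. Peritumoral liver gave 2.97, 4.755 and 20.07 as lowest, median and highest, and tumors 3.33, 8.82 and 26.08. The 2 highest values were those of peritumoral replicate 3 and tumor replicate 1, whose groups held 7.8 and 11.74 TPM in the next library. Fos was called in tumors against WD liver (1.40 on the log2 scale, SE 0.52, adjusted p = 0.03), with 5 of 6 tumors above the highest WD liver. Without tumor replicate 1 the value was 0.96 (adjusted p = 0.105), and the call was also lost without WD liver replicate 1 (1.28, adjusted p = 0.0799) or 4 (1.31, adjusted p = 0.0753). In tumors against peritumoral liver the value was 0.56 (SE 0.41, adjusted p = 0.303), and without peritumoral replicate 3 it was 1.05 (adjusted p = 0.0184), which was called. No pair of neighbours in the order of group means differed (adjusted p = 0.303 to 0.868).

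Fosb (ENSMUSG00000003545, chr7:19302696-19310051, minus strand), a Fos relative, was the scarcest member, with 24.0 to 225.0 expected counts in a library. In peritumoral replicate 3 and tumor replicate 1 it stood at 3.63 and 3.61 TPM, against 1.04 to 1.31 in the other peritumoral samples and 0.53 to 1.36 in the other tumors. Outside these 2 libraries it never exceeded 1.64 TPM. It was called in none of the 6 main comparisons, and the value for tumors against peritumoral liver was -0.31 (log2, SE 0.37, adjusted p = 0.552). Without tumor replicate 1 that value was -0.87 (adjusted p = 0.036).

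Jun (ENSMUSG00000052684, chr4:95049034-95052222, minus strand), the partner of Fos in the classical AP-1 dimer, was called in none of the 6 comparisons. TPM was 10.31, 14.06 and 11.92 in control liver, 16.38, 18.39, 22.77 and 14.2 in WD liver, and 14.17, 9.2, 11.62 and 7.84 in DEN liver. It was 12.26, 19.125 and 25.75 (lowest, median, highest) in peritumoral liver and 12.37, 22.09 and 36.02 in tumors. On the western diet all 3 groups overlapped, with log2 fold changes of -0.14 for peritumoral liver and -0.03 for tumors against WD liver (adjusted p = 0.73 and 0.929). On the log2(TPM + 1) scale both had the other sign (0.06 and 0.25, limma adjusted p = 0.858 and 0.371), where the median gene itself was 0.16 and 0.26 higher. The difference across the 5 groups passed on that scale (limma adjusted p = 0.00415). Neither difference from WD liver passed on either scale, so that no direction on the western diet can be given for Jun. DEN liver was lower than tumors by 0.62 on the log2 scale (SE 0.25, adjusted p = 0.0446), under the minimum fold change. Junos, an antisense gene, shares 7.28% of the exonic bases of Jun, and the sources used here do not say whether counting used strand. Junos lay at 0.17 to 1.49 TPM, with no library near the level of Jun.

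Junb (ENSMUSG00000052837, chr8:84974484-84978718, minus strand), a Jun protein that also answers to cytokines through STAT3, had its highest mean in uninjected mice on the control diet. TPM was 21.51, 38.69 and 46.26 in control liver, 8.98, 9.35, 15.53 and 8.39 in WD liver, and 23.17, 9.06, 9.97 and 10.45 in DEN liver. The control livers lay above all WD liver libraries, and above 3 of the 4 DEN liver libraries. In peritumoral liver the lowest, median and highest were 10.11, 13.505 and 22.79, and in tumors 17.19, 32.195 and 41.16. The tumors thus lay above WD liver without overlap in TPM, and overlapped the control livers. In normalized counts tumors and WD liver did overlap, with tumor replicate 5 at 443 and WD liver replicate 3 at 551. Junb was lower in WD liver than in control liver by a log2 fold change of -1.87 (SE 0.35, adjusted p = 0.000645), and lower in DEN liver by -1.44 (SE 0.35, adjusted p = 0.00473). Both comparisons share the 3 control livers, of which replicates 2 and 3 had the highest Junb and also the high metallothionein and acute phase levels given above. With both left out, Junb was at -1.20 (adjusted p = 0.191) and -0.78 (adjusted p = 0.456). The part of the state of those 2 livers in the difference was not tested.

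Junb was higher in tumors than in WD liver (1.20 on the log2 scale, SE 0.31, adjusted p = 0.00258) and was called with each of the 10 libraries left out. Against peritumoral liver it was higher by 0.95 (SE 0.24, adjusted p = 0.00379), just under the minimum fold change, with 5 of 6 tumors above every peritumoral sample in TPM. It was called there without tumor replicate 5 (1.08, adjusted p = 0.000743) or peritumoral replicate 3 (1.08, adjusted p = 0.00132). Junb was the 1 member of 10 called in the interaction of DEN with diet, at 1.69 (SE 0.45, adjusted p = 0.0228), beside 2.75% of all genes tested. The interaction takes the DEN difference on the western diet, in peritumoral liver, minus that on the control diet, so that it also rests on the control livers. It was lost without control liver replicate 2 or 3 or DEN liver replicate 2, with log2 values of 1.43 to 2.16 and adjusted p of 0.00351 to 0.0877 over all single libraries left out, and without both control liver replicates 2 and 3 it was 1.01 (adjusted p = 0.489). Prdx2 overlaps 7.52% of the exonic bases of Junb on the other strand, and its TPM lay between 72.98 and 116.59 in all libraries, with 89.17 to 98.68 in control liver and 82.74 to 107.52 in WD liver.

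**Figure D2:**
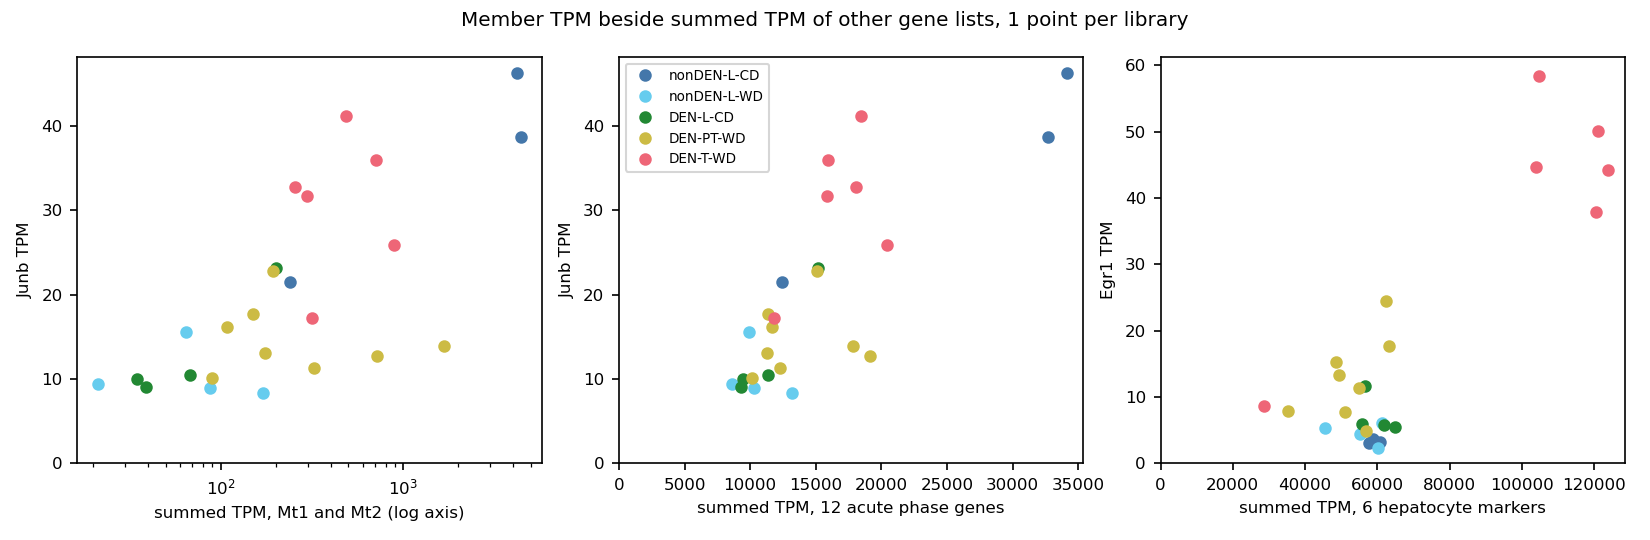
Junb TPM (y axis) against the summed TPM of Mt1 and Mt2 (log axis) and of 12 acute phase genes, and Egr1 TPM against the summed TPM of 6 hepatocyte markers (x axes), with 1 point per library coloured by group. The 2 nonDEN-L-CD livers with 38.69 and 46.26 TPM of Junb are those with 4392 and 4175 TPM of metallothioneins, while peritumoral replicate 7, at 1679.74 TPM of metallothioneins, had 13.9 TPM of Junb and tumor replicate 4, at 484.26, had 41.16. The tumor with 8.63 TPM of Egr1 is the one at 28623 TPM of hepatocyte markers.

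Atf3 (ENSMUSG00000026628, chr1:191170296-191218039, minus strand), a stress-induced member of the ATF family that can pair with Jun proteins, had its lowest tumor above the highest liver of uninjected mice. TPM was 2.36, 2.77 and 1.91 in control liver, 1.96, 4.75, 3.87 and 1.21 in WD liver, and 2.89, 5.08, 2.16 and 3.79 in DEN liver. In peritumoral liver it ranged from 3.78 over a median of 6.755 to 9.27, and in tumors from 8.43 over 14.23 to 28.69. The highest value was that of tumor replicate 1. Tumors exceeded WD liver by 1.86 (log2, SE 0.34, adjusted p = 0.000112) and peritumoral liver by 0.93 (SE 0.26, adjusted p = 0.00739), the latter under the minimum fold change. It was called there without peritumoral replicate 3 (1.04, adjusted p = 0.00368) or tumor replicate 5 (1.05, adjusted p = 0.00246), and was at 0.62 (adjusted p = 0.0428) without tumor replicate 1. Peritumoral liver against WD liver was at 0.93 (SE 0.32, adjusted p = 0.0578).

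Egr1 (ENSMUSG00000038418), a zinc finger factor that growth factors induce, had the widest range of group means, from 3.34 ± 0.308 TPM in control liver to 40.6 ± 17.1 in tumors (SD, n = 3 and 6). Its TPM was 3.06, 3.67 and 3.29 in the control liver replicates, and 4.43, 5.32, 6.05 and 2.27 in WD liver. In DEN liver it was 11.64, 5.48, 5.73 and 5.98. All 4 DEN livers lay above every control liver, and replicate 1 also above every WD liver, whereas the other 3 lay below the highest WD liver. DEN liver against control liver was at 1.09 (SE 0.52, adjusted p = 0.14). In peritumoral liver the lowest, median and highest TPM were 4.94, 12.33 and 24.42, and in tumors 8.63, 44.4 and 58.43. All tumors but replicate 5 exceeded every peritumoral sample. Egr1 was higher in tumors than in peritumoral liver by 1.54 on the log2 scale (SE 0.34, adjusted p = 0.00119) and higher than in WD liver by 2.85 (SE 0.47, adjusted p = 3.09e-05), and was called in both comparisons with each library left out. Without replicate 5 of the tumors the first difference was 1.75 (adjusted p = 3.24e-05). Between the 2 groups on the western diet without tumor, peritumoral liver exceeded WD liver by 1.31 (SE 0.42, adjusted p = 0.0444), with 7 of 8 peritumoral samples above the highest WD liver library. That call was lost when any of 9 of the 12 libraries was left out (WD liver replicates 1 to 4 and peritumoral replicates 2, 3, 4, 5 and 8), with log2 fold changes of 1.10 to 1.50 and adjusted p of 0.0209 to 0.152 over the 12. The other neighbours in the order of means, peritumoral liver over DEN liver, DEN liver over WD liver and WD liver over control liver, did not pass the test (adjusted p = 0.44, 0.481 and 0.737).

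Myc (ENSMUSG00000022346, chr15:61985391-61990374, plus strand), the E-box factor that drives growth and ribosome production with Max, had its highest mean in DEN-injected livers on the control diet. TPM was 1.59, 1.27 and 2.75 in control liver, 1.54, 2.82, 1.89 and 3.98 in WD liver, and 4.11, 15.34, 20.51 and 4.52 in DEN liver. Replicates 2 and 3 of DEN liver set the mean of 11.1 ± 8.14 (SD), and all 4 lay above both uninjected groups in TPM. In normalized counts DEN liver replicate 1, at 193, lay below WD liver replicate 4, at 201. The lowest, median and highest were 3.22, 5.055 and 13.36 in peritumoral liver and 3.64, 7.57 and 11.06 in tumors. Myc was higher in DEN liver than in control liver by 2.53 on the log2 scale (SE 0.59, adjusted p = 0.00393), and was called with each of the 7 libraries left out (2.05 to 2.90). Without control liver replicates 2 and 3 the value was 2.70 (adjusted p = 0.162). The differences of peritumoral liver and tumors from WD liver were 1.00 (SE 0.45, adjusted p = 0.142) and 1.14 (SE 0.47, adjusted p = 0.0502), which did not pass. Peritumoral liver was at -1.13 (SE 0.41, adjusted p = 0.0747) against DEN liver, and was called lower there without peritumoral replicate 6, the library with 13.36 TPM.

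Of 15 target genes that Myc is known to induce, such as Ncl, Npm1 and Odc1, 0 were called higher in DEN liver against control liver, where 2.76% of all genes were, and 1 lower, where 1.93% were: Cad, an enzyme of pyrimidine synthesis (-1.35, SE 0.18, adjusted p = 2.24e-05), with a median log2 fold change of -0.30 beside 0.02 over all genes tested. Cad was at -1.06 (adjusted p = 0.0196) without control liver replicates 2 and 3. In the other 2 comparisons that called Myc higher, peritumoral liver against control liver gave 0 targets higher and Cad lower (-1.28, adjusted p = 1.04e-06, and 0.00559 without those 2 libraries, where it was also called), and tumors against control liver gave 1 higher, Tfrc, the transferrin receptor (1.13, SE 0.28, adjusted p = 0.00149), which was at 1.21 (adjusted p = 0.0518) without them. Of 10 partners and antagonists (Max, Mxd and Mnt among them) 0 were called in DEN liver against control liver. In tumors against WD liver 0 of the 15 targets were called, and Mxd3 alone of the partners was called (1.34, SE 0.50, adjusted p = 0.0299) at under 50 normalized counts.

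Ier2 (ENSMUSG00000053560, chr8:84661331-84662852, minus strand), a small nuclear protein induced by growth factors, had the tightest replicates. TPM was 9.65, 7.27 and 8.67 in control liver, 8.59, 7.59, 9.15 and 6.13 in WD liver, and 8.64, 6.92, 7.77 and 8.55 in DEN liver. It reached 8.11, 11.385 and 13.88 (lowest, median, highest) in peritumoral liver and 11.69, 16.575 and 26.74 in tumors. All 6 tumors exceeded all 11 livers of the other 3 groups in TPM. In normalized counts the ranges overlapped, with tumor replicate 5 at 251, WD liver replicate 3 at 271, DEN liver replicate 1 at 287 and control liver replicate 1 at 326. On the log2 scale of normalized counts the tumors were higher than WD liver by 0.78 (SE 0.19, adjusted p = 0.00144) and than peritumoral liver by 0.47 (SE 0.15, adjusted p = 0.0166), both under the minimum fold change.

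Ier3 (ENSMUSG00000003541, chr17:35821684-35822923, plus strand), a short stress-induced protein that bears on cell survival and ERK signalling, followed the same order of group means as Egr1 at lower levels. TPM was 0.99, 2.24 and 1.33 in control liver, 2.56, 2.01, 2.0 and 1.09 in WD liver, and 2.05, 1.8, 1.76 and 2.69 in DEN liver. The 3 groups of liver without a resected tumor nearby overlapped throughout. The lowest, median and highest values were 2.54, 4.575 and 6.72 in peritumoral liver and 4.55, 11.99 and 30.38 in tumors. As for Egr1, 5 of 6 tumors lay above all peritumoral samples, with replicate 5 lowest and replicate 1 highest. The tumors were higher than peritumoral liver by 1.48 on the log2 scale (SE 0.31, adjusted p = 0.000663) and than WD liver by 2.55 (SE 0.42, adjusted p = 3.19e-05), and the 6 tumors and the 4 WD liver libraries did not overlap. Peritumoral liver against WD liver gave 1.06 (SE 0.39, adjusted p = 0.0712), which did not pass. Counts of Ier3 were low in the uninjected livers on the control diet (21.0 to 44.0 expected counts), so that its values there are less precise.

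Dusp1 (ENSMUSG00000024190, chr17:26505590-26562128, minus strand), which dephosphorylates p38, JNK and ERK and so ends the signal that induces the others, had lower means in tumors than in the other western diet groups. TPM was 21.14, 15.37 and 21.24 in control liver, 26.53, 27.47, 45.48 and 34.23 in WD liver, and 38.74, 42.74, 48.02 and 21.95 in DEN liver. The lowest, median and highest were 22.5, 32.405 and 44.9 in peritumoral liver and 16.21, 25.965 and 42.08 in tumors. In 4 of 6 tumors it lay below every WD liver. In normalized counts tumors stood against WD liver at a log2 fold change of -0.68 (SE 0.25, adjusted p = 0.0283) and against DEN liver at -0.92 (SE 0.25, adjusted p = 0.00425), and DEN liver was higher than control liver by 0.91 (SE 0.31, adjusted p = 0.0367), all 3 under the minimum fold change. In TPM, where the median gene itself was 0.26 higher in tumors than in WD liver on the log2(TPM + 1) scale, the tumor difference was -0.32 (limma, adjusted p = 0.262).

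By comparison, the western diet in uninjected mice (WD liver against control liver) gave 1 called member of 10, Junb lower, where 5.28% of all genes tested were called, and a median log2 fold change of 0.26 over the members beside 0.01 over all genes tested. DEN on the control diet (DEN liver against control liver) gave 2, Junb lower and Myc higher, beside 4.7% of all genes. DEN on the western diet in peritumoral liver (peritumoral liver against WD liver) gave 1, Egr1 higher, beside 2.76%. Peritumoral liver on the western diet against DEN liver, which differ in diet and in the presence of a resected tumor, gave 0 by edgeR beside 1.9% of all genes, with 4 members at an unadjusted p under 0.05 (Jun, Atf3, Ier3, Myc), beside 27.3% of all genes, and 1, Myc, called lower by DESeq2, beside 2.25%. Tumor against peritumoral liver gave 2, Egr1 and Ier3 higher, beside 7.9%, and 5 without a minimum fold change (Junb, Egr1, Atf3, Ier2, Ier3, all higher), beside 37.7%. Tumor against WD liver gave 5 higher, Fos, Junb, Egr1, Atf3 and Ier3, and 0 lower, beside 10.4% higher and 5.24% lower of all genes. The median over the 10 members was 0.52 for tumor against peritumoral liver and 1.17 for tumor against WD liver, beside 0.01 and 0.02 over all genes tested. These last comparisons share their tumors, and each of the 5 groups enters more than 1 comparison.

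The 4 remaining pairs of groups differ in more than 1 factor or share the control livers. Peritumoral liver against control liver gave 6 called members beside 13.3% of all genes, Junb lower (-1.62, adjusted p = 0.000118) and Fosb, Egr1, Atf3, Ier3 and Myc higher (1.17 to 1.60, adjusted p = 0.0106 to 0.0446). Tumors against control liver gave 5 beside 20.3%, all higher: Fos (1.63), Egr1 (3.13), Atf3 (2.10), Ier3 (2.75) and Myc (1.54), with Junb at -0.67 (adjusted p = 0.0735). Without control liver replicates 2 and 3, which leaves 1 control sample, all called members lost their calls in peritumoral liver, and Fos and Myc lost theirs in tumors. Calls over all genes also fell in both comparisons. Junb was then at -0.96 and Egr1 at 1.68 in peritumoral liver, and Egr1 was at 3.22, Atf3 at 2.37 and Ier3 at 3.29 in tumors. Leaving out single control livers moved the counts of 6 and 5, to 2 without replicate 1 and 3 without replicate 3 in peritumoral liver, and to 3 without replicate 1 or replicate 2 in tumors. Tumors against DEN liver gave 3 beside 14.3%, Egr1 (2.04), Atf3 (1.77) and Ier3 (2.32), all higher, and 5 without DEN liver replicate 1 or replicate 4. Without a minimum fold change it gave 7 (Jun, Junb, Egr1, Atf3, Ier2 and Ier3 higher and Dusp1 lower), beside 46.9% of all genes. DEN liver against WD liver gave 0 by edgeR beside 0.25%, with Myc at 2.13 (adjusted p = 0.0511).

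**Figure D3:**
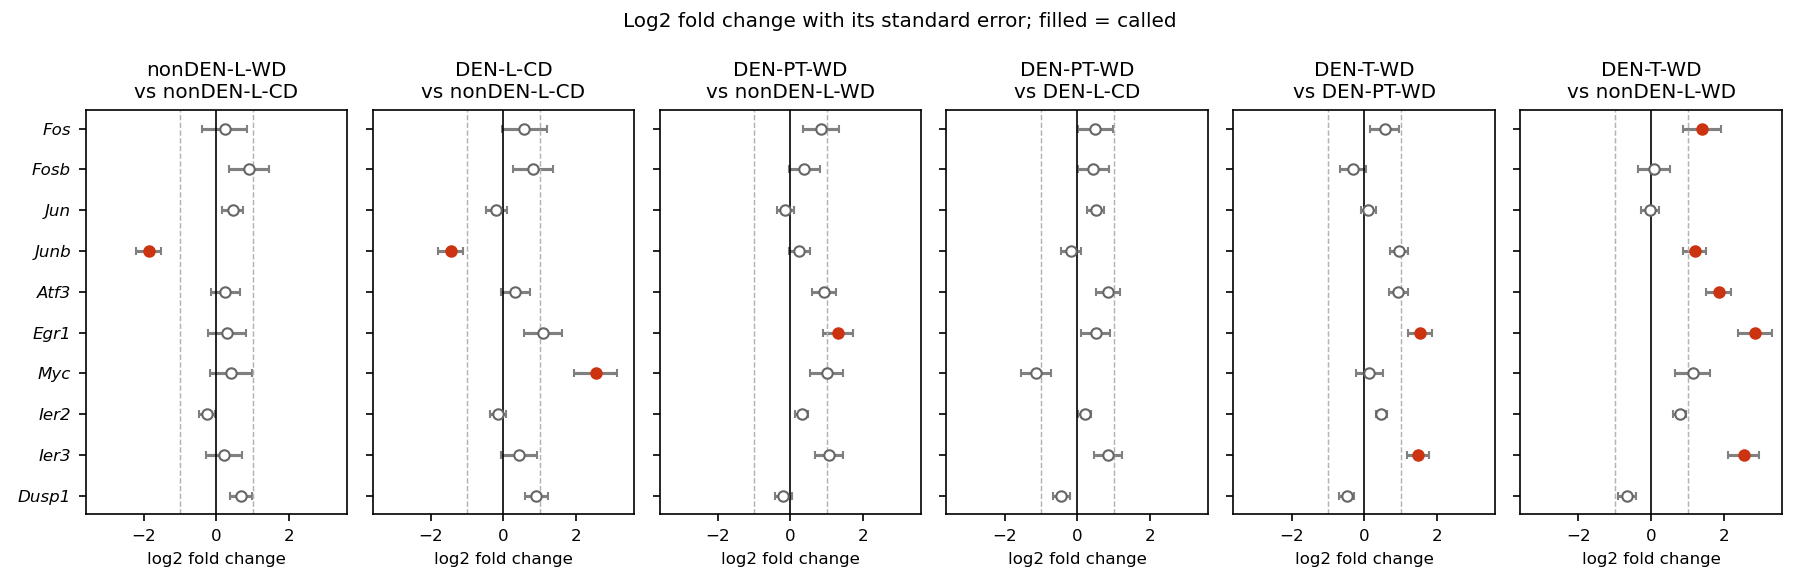
Log2 fold change of each member (x axis, bars are standard errors of the edgeR fit) in the 6 comparisons named above the panels, with members on the y axis. Filled points were called and dashed lines mark a log2 fold change of 1 in size. DEN-T-WD against nonDEN-L-WD holds 5 filled points, from 1.20 for Junb to 2.85 for Egr1.

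Cell types could not be held apart in bulk tissue, where more cells of a type and more RNA per cell cannot be told apart. Beside the tumor results, the hepatocyte markers summed to 103941 to 123771 TPM in 5 of 6 tumors, with Apoa1 called higher and Tat and Cps1 lower against WD liver. The median log2 fold change of the 6 markers in tumors was below 0, at -0.37 against WD liver, -0.60 against DEN liver and -0.20 against peritumoral liver. The 5 bile duct markers summed to 384.58 to 833.19 TPM in tumors, 72.73 to 324.5 in peritumoral liver and 45.16 to 68.57 in WD liver, with 2 of 5 called higher in tumors against peritumoral liver (Spp1 and Sox9). The median log2 fold change of the 5 in tumors was 0.26 against peritumoral liver and 0.51 against WD liver. Krt19, another of the 5, was called lower in tumors against DEN liver. The 6 macrophage markers summed to 99.97 to 210.1 TPM in tumors and 133.38 to 281.91 in peritumoral liver, with 2 of 6 called lower in tumors (Marco and Clec4f). The 6 endothelial markers summed to 128.94 to 159.31 TPM in tumors, 134.1 to 170.12 in peritumoral liver and 82.74 to 129.43 in WD liver, with Lyve1 alone called higher against WD liver in peritumoral liver (1.09, adjusted p = 0.000482) and in tumors (1.17, adjusted p = 3.31e-06). The 6 stellate cell and fibroblast markers summed to 188.5 to 249.79, 229.2 to 424.37 and 147.4 to 221.07 TPM in the same order, with Col1a1 alone called higher in tumors against WD liver (1.81, adjusted p = 2.09e-05). Every peritumoral sample thus lay above every WD liver for both sums. Neutrophil markers (5 genes, of which 4 passed the filter) summed to 6.48 to 35.96 TPM in tumors, 4.52 to 18.07 in peritumoral liver, 4.96 to 7.23 in WD liver and 6.89, 26.2 and 33.4 in control liver, where Ly6g was at 0 in every library and the 2 higher values belong to replicates 2 and 3. All 4 of these were called lower in WD liver than in control liver, 0 without control liver replicates 2 and 3, and 2 of the 4 were higher in tumors than in WD liver (S100a8 and S100a9).

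The 6 T cell markers summed to 2.77 to 13.32 TPM over all libraries, and Cd8a, under 50 normalized counts, was called higher in DEN liver, peritumoral liver and tumors against control liver and in peritumoral liver and tumors against WD liver. Without control liver replicates 2 and 3, Cd8a was at 2.99 (log2, adjusted p = 0.243), 3.56 (0.0618) and 3.57 (0.0361) in the comparisons with control liver, so that only the call in tumors remained. The 4 B cell markers summed to 0.56 to 1.53 TPM in control liver and to 2.18 to 8.42 in the other libraries. Against control liver 1 of the 4 was called higher in WD liver, 3 in DEN liver, 4 in peritumoral liver and 4 in tumors, and 0, 0, 0 and 1 without control liver replicates 2 and 3. Control liver replicate 1 had 1.48 TPM of these markers, below every library of the other groups, and the median log2 fold change of the 4 went from 1.42 to 1.31 in WD liver, from 1.95 to 1.67 in DEN liver, from 1.79 to 1.35 in peritumoral liver and from 1.90 to 1.63 in tumors. The 5 red cell genes summed to 760.3 to 954.01 TPM in control liver, below every other library, to 1584.56 to 1852.21 in WD liver, 1532 to 3603 in peritumoral liver and 2517 to 7450 in tumors. In tumors the globin gene Hbb-bt was called higher against WD liver, and Alas2, an enzyme of heme synthesis, was called lower against WD liver and against DEN liver. Against control liver the 4 globin genes were called higher in peritumoral liver and in tumors and 1 of them, Hba-a1, in DEN liver, while Alas2 was called lower in tumors. Without those 2 libraries 0, 1 and 0 globin genes were called, but the median log2 fold change of the 5 genes went only from 1.21 to 1.00 in peritumoral liver and from 1.68 to 1.52 in tumors, and Alas2 was still called. The part of these cell types in the member results was not tested.

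A wider set of 40 immediate early genes outside the members, of which 39 were tested, was followed beside them. In tumors against WD liver 11 were called higher and 2 lower, where 10.4% and 5.24% of all genes were, with a median log2 fold change of 0.35 beside 0.02 over all genes tested. The 6 with the largest change at 50 or more normalized counts were Dusp5, an ERK phosphatase (3.39, SE 0.54, adjusted p = 2.34e-05), Btg2, an antiproliferative p53 target (2.26, SE 0.39, adjusted p = 6.18e-05), Maff, a small Maf factor (1.80, SE 0.30, adjusted p = 4.72e-05), Id1, an inhibitor of bHLH factors (1.74, SE 0.33, adjusted p = 0.000138), Gadd45b (1.28, SE 0.37, adjusted p = 0.00611) and Klf6 (1.22, SE 0.14, adjusted p = 2.5e-07). Plk3 (-1.21, adjusted p = 0.00474) and Cebpb, a liver-enriched factor (-1.13, adjusted p = 1.2e-06), were the 2 that fell. In tumors against peritumoral liver 4 of the 39 were called higher and 0 lower, where 7.9% of all genes were called, with a median of 0.14: Dusp5 (1.71, adjusted p = 0.00117), Btg2 (1.46, adjusted p = 0.000568), Maff (1.22, adjusted p = 0.000317) and Id1 (1.02, adjusted p = 0.00287).

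Socs3, the cytokine-induced brake on STAT3, was called lower in all 3 comparisons that called Junb lower, and in tumors against control liver (-1.93, adjusted p = 3.09e-05), where Junb was not called. It was lower in WD liver than in control liver by -2.95 (SE 0.38, adjusted p = 1.61e-05) and lower in DEN liver by -1.68 (SE 0.36, adjusted p = 0.00218) and in peritumoral liver by -2.14 (SE 0.30, adjusted p = 8.4e-06), and was called in the interaction at 2.48 (SE 0.48, adjusted p = 0.00325). With control liver replicates 2 and 3 left out the values in WD, DEN and peritumoral liver were -1.62 (adjusted p = 0.0497), -0.35 (adjusted p = 0.769) and -0.83 (adjusted p = 0.184), that in tumors was -0.61 (adjusted p = 0.297), and the interaction was 1.14 (adjusted p = 0.388). In WD liver against control liver, Ccn1 and Klf4 were called higher (1.59 and 1.05, adjusted p = 0.00355 and 0.00361), with Egr2 at under 50 normalized counts, and in DEN liver against control liver Gadd45b was called lower (-1.29, adjusted p = 0.033), with Egr2 and Nr4a3 higher at under 50. None of these 6 calls passed without control liver replicates 2 and 3 (adjusted p = 0.107 to 0.346). In peritumoral liver against WD liver Dusp5 alone was called (1.68, adjusted p = 0.032), and in peritumoral liver against DEN liver Egr2 alone, under 50 normalized counts. The metallothioneins and acute phase genes moved in the comparisons that called Junb and Socs3, and also in comparisons that did not call Junb. In WD liver against control liver both metallothioneins were called lower (Mt2 -6.09, adjusted p = 0.00093, and Mt1 -4.44, adjusted p = 0.00262). So were 9 of 12 acute phase genes (median -1.27), led by Saa2 (-4.92), Saa1 (-4.15) and Lcn2 (-3.11). In DEN liver against control liver both metallothioneins and 7 of 12 acute phase genes (median -1.05) were lower. Both metallothioneins and 7 of 12 acute phase genes were higher in the interaction. The metallothionein median against control liver was -3.114 in peritumoral liver, which called Junb lower, and -3.067 in tumors, which did not. The acute phase medians there were -0.9213 and -1.004. Against WD liver, Mt2, Lcn2 and Apcs were called higher in tumors, where Junb and Socs3 were too. Mt2 and Lcn2 were also called higher in peritumoral liver against WD liver, where neither Junb nor Socs3 was. The part of these changes in Junb was not tested. The 10 heat shock genes summed to 2106.58 to 2440.73 TPM in tumors, 1474.26 to 1787.93 in peritumoral liver and 1547.81 to 1680.43 in WD liver. Hspa1a was called higher in tumors against peritumoral liver (median of the 10 genes 0.13), and none was called against WD liver (median -0.33). In WD liver and in DEN liver against control liver 2 and 3 of the 10 were called lower, with Hspb1 at -2.11 and -2.37 and Hsp90aa1 at -1.46 and -1.57. Without control liver replicates 2 and 3, 0 metallothioneins and 0 acute phase genes were called in either comparison or in the interaction (medians over the acute phase genes of -0.25 and -0.12 in the 2 comparisons), whereas 3 heat shock genes were called lower in each, with Hspb1 at -2.12 and -2.38 (adjusted p = 0.01 and 0.00386).

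Upstream of the members, none of 15 genes for the MAPK route and its nuclear factors (Srf, Elk1, Egfr, Creb1 and others) was called in any of the 6 main comparisons or in the interaction. In tumors against control liver Rps6ka1 and Mapk3, kinases of that route, were higher (1.24 and 1.21, adjusted p = 2.98e-05 and 5.7e-08) and Egfr lower (-1.99, adjusted p = 0.000722), and all 3 were called without control liver replicates 2 and 3 as well. In peritumoral liver against control liver Egfr was lower (-1.63, adjusted p = 0.00319), and at -1.40 (adjusted p = 0.154) without them. Of 10 AP-1 and ATF partners, Fosl1 in tumors against WD liver and Batf2 in peritumoral liver against WD liver were called, both higher and under 50 normalized counts, and none was called in the other 4 main comparisons. Of 10 further dual-specificity phosphatases (median 0.68), 3 were called higher in tumors against peritumoral liver: Dusp4 (2.02, SE 0.19, adjusted p = 6.74e-08), Dusp5 and, under 50 normalized counts, Dusp9, and the same 3 against WD liver, where Dusp4 stood at 2.84 (adjusted p = 1.48e-08). Dusp8 was lower in both comparisons with the control livers (-1.35 and -1.40, adjusted p = 0.00488 and 0.0042), and at -0.70 and -0.74 (adjusted p = 0.487 and 0.463) without control liver replicates 2 and 3. Of 12 clock genes, which follow the hour of sampling, 2 were called in each of those comparisons, Arntl lower (-1.88 and -1.95) and Per3 higher (1.18 and 1.19, adjusted p = 0.00349 and 0.00335), and 0 in peritumoral liver against WD liver or DEN liver. None of the 12 was called without control liver replicates 2 and 3 in either comparison, with Arntl at -1.23 and -1.31 (adjusted p = 0.236 and 0.215). Arntl was also called in the interaction, as Junb was (2.35, adjusted p = 0.00763), and was at 1.69 (adjusted p = 0.267) there without those 2 libraries. In tumors against either western diet group only Npas2 was called, under 50 normalized counts.

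Within groups the members spread widely and together. The biological coefficient of variation from edgeR, the spread between samples beyond counting error, had a median of 37.2% over the 10 members and 15.3% over all genes tested. All 10 lay above the fitted trend at their level, as did 19.5% of all genes. It was highest for Fos (52.1% against a trend of 21.3%), Myc (47.6%), Fosb (46.3%) and Egr1 (43.9%) and lowest for Ier2 (19.8% against a trend of 19.1%). Taking each member as log2 CPM minus the mean of its group, tumor replicate 1 was above the mean for 10 of 10 members (mean deviation 0.90) and peritumoral replicate 3 for 9 of 10 (0.63), whereas tumor replicate 5 was below it for 9 of 10 (-0.94), with Egr1 at -2.14 and Ier3 at -1.51.

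**Figure D4:**
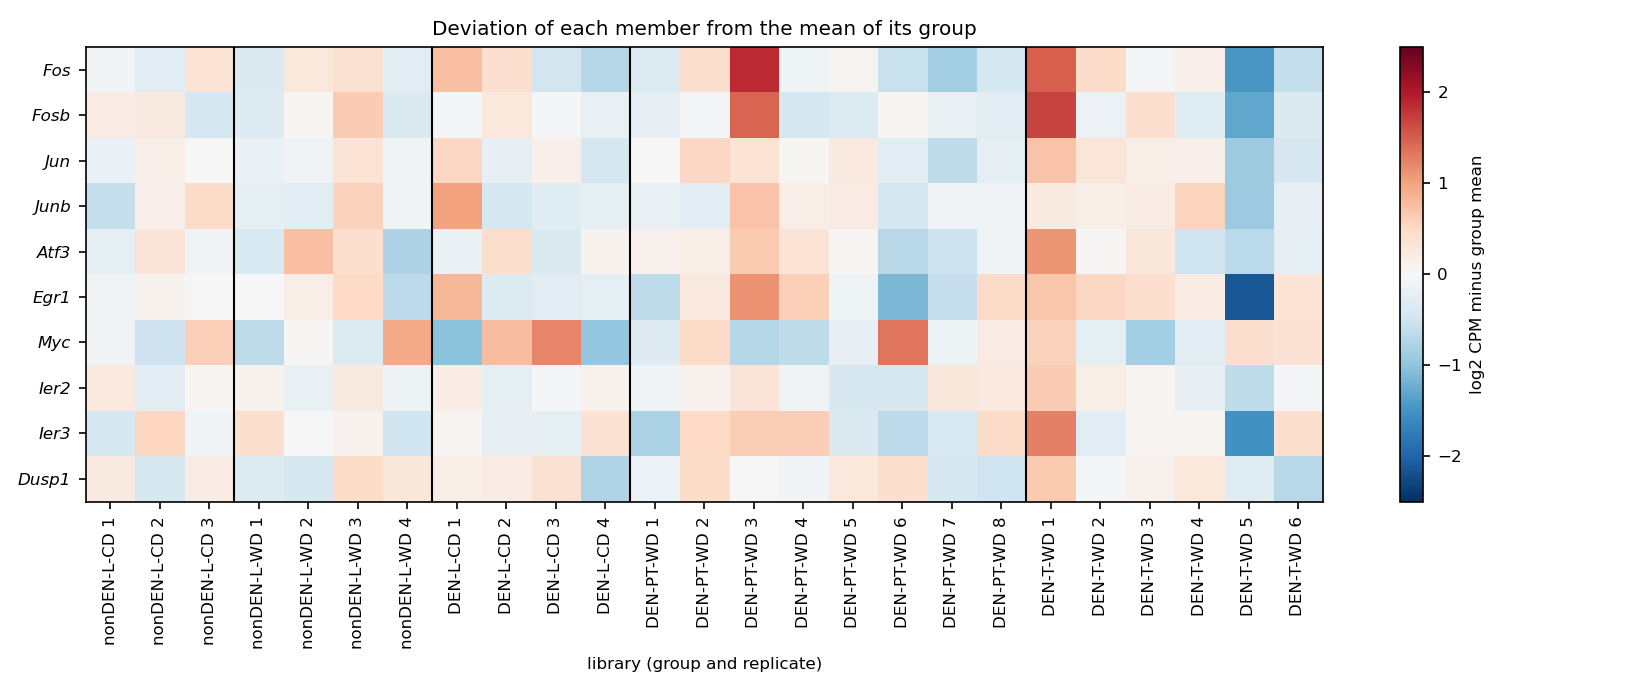
Log2 CPM of each member minus the mean of its group (colour), for 10 members (rows) and 25 libraries (columns, black lines between groups). DEN-T-WD replicate 1 and DEN-PT-WD replicate 3 are high and DEN-T-WD replicate 5 is low across most rows, with mean deviations of 0.90, 0.63 and -0.94, and Myc differs from the other rows in several columns.

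Of the 45 pairs of members, 36 had a positive correlation of these deviations over the 25 libraries, with a median Pearson's r of 0.55, where the median over all pairs of tested genes was -0.001 and 2.31% of all pairs, against 23 of the 45, reached 0.55. Permutation within groups (100000 permutations, two-sided, Benjamini-Hochberg over the 45 pairs) gave 24 pairs with an adjusted p of at most 0.05 by Pearson's r, 23 of them positive, and 15 by Spearman's rho. Fos and Jun, the AP-1 pair, had r = 0.81 (permutation p = 0.00011, adjusted 0.00248) and rho = 0.81 (permutation p = 7e-05, adjusted 0.0018), and r = 0.84 and 0.71 without the 2 libraries farthest from the median of Fos or of Jun. Egr1 and Ier3 had r = 0.81 (permutation p = 8e-05, adjusted 0.00248) and rho = 0.76 (permutation p = 8e-05, adjusted 0.0018), and r = 0.68 and 0.71 without the 2 farthest for Egr1 or for Ier3. Within peritumoral liver alone these 2 pairs had r = 0.75 and 0.92 (n = 8), and within tumors r = 0.98 and 0.86 (n = 6), given without a test. Fos and Fosb had r = 0.79 (permutation p = 0.00079, adjusted 0.0054) and rho = 0.50 (permutation p = 0.0124, adjusted 0.04), and r = 0.54 without the 2 farthest for either.

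The exceptions were Myc and Dusp1. Myc had a negative r with 8 of the other 9 members, and its only pair past the threshold was with Egr1 (r = -0.47, permutation p = 0.0152, adjusted 0.0361), which did not pass by rank (rho = -0.48, permutation p = 0.0239, adjusted 0.0598). Dusp1 paired with Jun (r = 0.64, permutation p = 0.00234, adjusted 0.00957) and Fos (r = 0.51, permutation p = 0.0192, adjusted 0.0392) and with no other member at an adjusted p of at most 0.05. Of the 24 pairs, 18, all of them positive, kept an r of at least 0.3 when the 2 libraries farthest for either gene were left out.

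**Figure D5:**
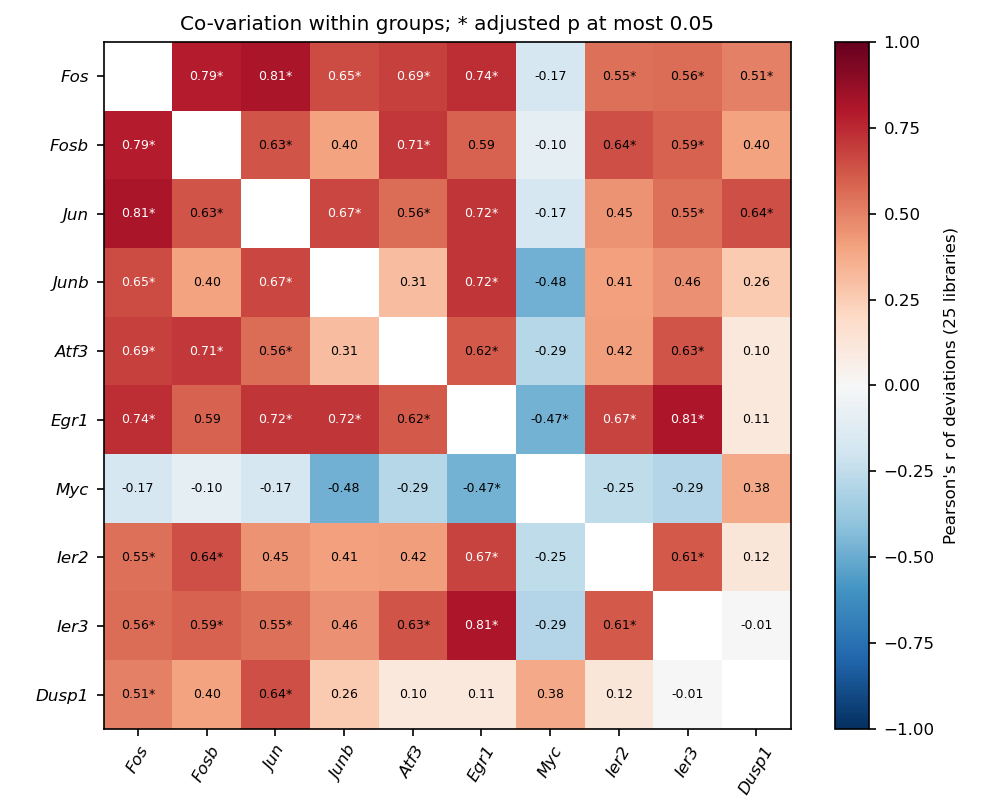
Pearson's r of the within-group deviations for each pair of members (colour and number) over 25 libraries, with an asterisk where the adjusted permutation p is at most 0.05. Among the 9 members other than Myc all pairs are positive except Ier3 with Dusp1 (-0.0056), and the highest are Fos with Jun and Egr1 with Ier3, both 0.81.

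Outside the members, the genes whose deviations were most like theirs over the 25 libraries, were taken by Pearson's r and are given without a test. They were Gm9794, Rps19 and Tmem208 for Fos (r = 0.88, 0.83 and 0.79), Mir703, Ensa and Rpl11 for Fosb (0.77, 0.77 and 0.75), and Wwc1, Armc5 and Jund for Jun (0.80, 0.79 and 0.75). For Junb they were Btg2, Mmp14 and Mcrip1 (0.80, 0.79 and 0.77), for Egr1 Ifngr1, Trf and Tgif1 (0.88, 0.88 and 0.87), for Atf3 Tmem43, Jrk and Vasp (0.80, 0.80 and 0.79) and for Ier2 Sntg2, Parm1 and Bcor (0.83, 0.79 and 0.78). For Ier3 they were Slc34a2, L3mbtl3 and Fam84b (0.82, 0.81 and 0.81), for Dusp1 Ndufa6, Gm10605 and Gm10169 (0.76, 0.71 and 0.68), and for Myc Tchh, Foxq1 and Ctse (0.81, 0.78 and 0.78). Jund and Btg2 were the only 2 of these 30 from the set of 40 immediate early genes, which is 6.67%, where 0.25% of all genes tested outside the members belong to that set.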

How the data were processed

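Total RNA was made into mRNA libraries and sequenced. Per the submitters' processing notes, reads were checked with FastQC, aligned with STAR to GRCm38 and quantified with RSEM, and the sources used here give no STAR or RSEM version and no strand setting. The deposited files hold expected counts per Ensembl gene, which the authors obtained by sharing reads among genes with RSEM, and TPM, which the authors' RSEM runs scaled to transcript length and library total. Library totals ran from 21530083 to 38074411 expected counts, and the lowest member count was 21.0 (Ier3), so that counting error is larger for Ier3 and Fosb than for the other members.

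Expected counts were rounded, filtered with filterByExpr (minimum count 10) and fitted with TMM normalization in 1 edgeR (4.0.16, R 4.3.3) quasi-likelihood model over the 5 groups, without covariates, for 15625 genes. Adjusted p-values are Benjamini-Hochberg over those genes, and a gene was called at an adjusted p of at most 0.05 with a log2 fold change of at least 1 in size. DESeq2 (1.42.0, a likelihood ratio test where all 5 groups were compared), limma (3.58.1) on log2(TPM + 1) and log2(TPM + 0.1), no filter, other size factors, a replicate block and left-out libraries were the alternatives. Co-variation used log2 CPM (prior count 2) minus the group mean, with SciPy 1.17.1 and NumPy 2.4.6. The models were tested on simulated data. Libraries were compared within groups and none looked like a copy of another.

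The members were given by symbol, and the lists of further genes, the markers and the rule for named genes were written down with earlier results of these data known. The rule named all 10 members, up to 6 called genes of each list with the largest change at 50 or more normalized counts, and the 3 genes most like each member. Plk3, Cebpb, Prdx2, Junos, the cell type markers and genes under 50 normalized counts were named after their values were seen. Promoter sequences are from RefSeq (GRCm38.p6), with 7 members matched.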

Additional observations from a re-analysis of the deposited data

Results flagged for a closer look

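In 9 of the 40 groups checked (10 members in the 4 groups of 4 to 8 libraries) the highest library stood apart from the rest by its gap relative to the range. Chance gives about 1 in 20 for either end, and over all genes tested in these libraries the highest stood apart in 7.31% of gene and group pairs (13.5% in tumors). Members moved together, so that the 40 checks are not independent. Peritumoral liver replicate 3 was such a library for Fos (20.07 TPM, others 2.97 to 7.8) and Fosb (3.63, others 1.04 to 1.31). Tumor replicate 1 was one for Fos (26.08 TPM, others 3.33 to 11.74), Fosb (3.61, others 0.53 to 1.36) and Atf3 (28.69, others 8.43 to 15.1).

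Junb stood apart in WD liver replicate 3 (15.53 TPM, others 8.39 to 9.35) and in DEN liver replicate 1 (23.17 TPM, others 9.06 to 10.45). The latter library also stood apart for Egr1 (11.64 TPM, others 5.48 to 5.98). Myc stood apart in peritumoral replicate 6 (13.36 TPM, others 3.22 to 7.9).

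The interaction of DEN with diet was called for Junb, at 1.69 on the log2 scale (edgeR quasi-likelihood test, Benjamini-Hochberg adjusted p = 0.0228). The call was lost without control liver replicate 2, control liver replicate 3 or DEN liver replicate 2, and the value was 1.01 (adjusted p = 0.489) without both of these control livers. It compares peritumoral liver with WD liver on one side and DEN liver with control liver on the other, so that diet and the presence of a cut-out tumor cannot be told apart.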

How the results depend on the processing

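None of the 26 called log2 fold changes of a member, over 10 pairs of groups and the interaction, changed sign under the alternatives tried. Junb, Egr1, Atf3 and Ier3 in tumors against WD liver were called in 19 of 19 alternatives and Egr1 in tumors against peritumoral liver in 23 of 23. In that comparison the member count of 2, beside 7.9% of all genes, became 4 on log2(TPM + 0.1), beside 6.53%, and 5 without a minimum fold change, beside 37.7%. It ranged from 2 to 5 with single libraries left out, with 5 without peritumoral replicate 3 and 4 without tumor replicate 5. For peritumoral liver against WD liver the count of 1, beside 2.76% of all genes, became 2 by DESeq2 (beside 3.33%), 2 on log2(TPM + 1) (1.32%) and 4 on log2(TPM + 0.1) (4.08%). It was 0 without a filter on low counts (1.51%) and 0 to 3 with single libraries left out. For peritumoral liver against DEN liver the count of 0, beside 1.9% of all genes, became 1 by DESeq2 (Myc lower, beside 2.25%), 2 on log2(TPM + 0.1) (4.53%) and 0 to 1 with single libraries left out. The interaction count of 1, beside 2.75% of all genes, became 2 by DESeq2 (beside 3.49%) and 0 to 2 with single libraries left out. WD liver against control liver kept 1 and DEN liver against control liver gave 2 to 3 with single libraries left out. Without control liver replicates 2 and 3, chosen after seeing the data, no member call was kept in WD liver or DEN liver against control liver. The same held for peritumoral liver against WD liver and for the interaction. Calls over all genes also fell in these, except in peritumoral liver against WD liver. Without peritumoral replicate 3 and tumor replicate 1, also chosen after seeing the data, peritumoral liver against WD liver gave 0, beside 1.96% of all genes. For peritumoral liver against control liver the count of 6, beside 13.3% of all genes, ranged from 2 to 6 with single libraries left out. For tumors against control liver the count of 5, beside 20.3%, ranged from 3 to 6. Without control liver replicates 2 and 3, which leaves 1 control sample, calls of members and over all genes fell in both. For tumors against DEN liver the count of 3 became 5 with the replicate block in a fit of only the groups compared, 5 on log2(TPM + 1), 7 on log2(TPM + 0.1), 7 without a minimum fold change and 3 to 5 with single libraries left out, where the calls over all genes were 14.3% in the main result, 13.8%, 8.9%, 18.0% and 46.9% under the first 4 of these settings. The fit of only the groups compared without the block called 13.6% of all genes. For DEN liver against WD liver the count of 0, beside 0.25% of all genes, became 1 (Myc higher) by DESeq2 (beside 0.422%) and with its size factors (0.262%), and 0 to 1 with single libraries left out. The causes were not tested.

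The replicate numbers in the labels did not pair the samples: the correlations of same-numbered samples ran from -0.23 to 0.388. With the number as a replicate block, in a fit of only the groups compared, peritumoral liver against WD liver gave 0 called members (Egr1 at 1.53, adjusted p = 0.0506), peritumoral liver against DEN liver 1 (Atf3), tumors against peritumoral liver 1 (Egr1, with Ier3 at 1.34, adjusted p = 0.0527) and the interaction 0 (Junb at 1.76, adjusted p = 0.0509). In DEN liver against control liver Junb was at -1.45 (adjusted p = 0.127) with the block. Over all genes, calls in that comparison went from 724 to 308, and in peritumoral liver against WD liver from 367 to 165, when the block was added. The best match of a sample was its own number for 3 of 3 in DEN liver against control liver and 1 of 6 in tumors against peritumoral liver. Depth limits mainly Ier3 and Fosb, whose counts fell to 21.0 and 24.0 in single libraries.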
